A study of Rattus norvegicus with 12 samples.

Results

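MHC class II genes and the invariant chain gene Cd74 were followed in INS-1E cells, a rat insulinoma line used as a model of the pancreatic β-cell. Bulk RNA-seq counts were available for 12 libraries, 3 in each of 4 groups. Untreated cells received no cytokine, IL-1βlow cells received IL-1β at 10 pg/ml for 72 h, CYT cells received IL-1β at 100 pg/ml together with IFN-γ at 5 ng/ml for 16 h, and IL-1βlow + CYT cells received the low dose first and, after the medium was renewed, the same challenge. All groups are the same wild-type cell line, and in both challenged groups IFN-γ was only ever given together with the higher dose of IL-1β, so the shares of the 2 cytokines in the challenge cannot be told apart.

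The genes were chosen by symbol, 9 of the 34034 symbols in the count table: Cd74, Ciita, RT1-Ba, RT1-Bb, RT1-Da, RT1-Db1, RT1-DMa, RT1-DMb and Ctss. All 9 were present. The choice also rested on measured values, because Cd74 was known to be higher with IL-1βlow alone and RT1-DMb to appear only with the challenge. Levels in untreated, IL-1βlow and challenged cells are therefore given as a description with no p-value, and tests are given for IL-1βlow + CYT against CYT cells, which the rule for choosing the genes did not name. Of the 9 genes, 8 passed the filter on low counts (above 1 CPM, counts per 1000000 of the library, in at least 2 libraries), and 6 of those 8 passed it only through challenged libraries, RT1-DMa and Cd74 being the exceptions. Ctss did not pass.

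MHC class II molecules are pairs of an α and a β chain that carry peptides from endosomes to the cell surface, where CD4+ T cells read them. They are normally restricted to professional antigen-presenting cells, and IFN-γ can switch them on elsewhere through CIITA, a coactivator that does not bind DNA itself but docks on RFX, NF-Y and CREB factors held at the X and Y boxes of class II promoters. New chains assemble on the invariant chain encoded by Cd74, cathepsin S (Ctss) trims it down, and the DM pair then removes the remaining CLIP fragment so that peptide can bind. In the rat, RT1-Ba with RT1-Bb and RT1-Da with RT1-Db1 encode the 2 peptide-binding pairs, and RT1-DMa with RT1-DMb encode DM.

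The upstream sequences of these genes are shown because the chain genes share a pair of spaced motifs there. RefSeq promoter sequences of the assembly GRCr8, 250 bases before to 50 after the gene start, were at hand for 7 of the 9 genes, RT1-DMb and Ciita aside. The letters GNNACNG (an X box core) followed 15 to 30 bases later by ATTGG (the Y box core, bound by NF-Y) were found in 5 of the 7, against 2.82% of all 33469 rat promoters of that length on either strand. Either core alone is common, at 88.1% and 37.5% of promoters. The letters were set after these promoters had been read, so the counts describe them and test nothing. In the following stretches, written 5′ to 3′ on the strand of the gene, capitals mark the X core and the Y core.

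RT1-Da (chr20:4515323-4515380, + strand): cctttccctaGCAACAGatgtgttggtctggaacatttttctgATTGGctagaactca

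RT1-Db1 (chr20:4560228-4560284, - strand): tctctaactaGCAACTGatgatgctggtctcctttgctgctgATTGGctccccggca

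RT1-Ba (chr20:4576971-4577028, + strand): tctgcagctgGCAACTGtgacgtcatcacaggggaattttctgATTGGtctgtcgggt

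RT1-Bb (chr20:4604165-4604221, - strand): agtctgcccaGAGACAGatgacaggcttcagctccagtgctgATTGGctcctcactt

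RT1-DMa (chr20:4712385-4712442, - strand): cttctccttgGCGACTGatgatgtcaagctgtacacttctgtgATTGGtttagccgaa

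Cd74 (chr18:56526982-56527031, + strand): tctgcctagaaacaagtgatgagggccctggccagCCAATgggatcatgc

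In the 5 class II genes the cores stood 25 or 26 bases apart, with the first letter of the X core 76 to 112 bases before the gene start. Cd74 holds its Y core in the opposite direction, 189 bases before the start, and these exact X core letters do not precede it at that spacing, which says only that the letters set here are not in that window. Of the 7 promoters, Cd74 alone held GGGNN followed directly by TTTCC, letters that NF-κB proteins can bind, 107 bases before the start. That motif occurs in 1.53% of promoters on either strand. RT1-Ba alone held TGACG, a CREB core, which occurs in 21.2%. A match is a run of letters and not a site shown to be used.

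Library totals ran from 15812640 to 20246806 counts. Levels are CPM after scaling by the trimmed mean of M-values (TMM), with the SD of a group's 3 libraries after the sign ±, and they are compared between groups of 1 gene and not between genes, since gene length is not corrected for. Summed CPM of 6 β-cell markers, Ins1 and Ins2 among them, ran from 41900 to 48700 in untreated libraries from 37400 to 43900 in IL-1βlow, from 13600 to 14600 in CYT and from 19400 to 24900 in IL-1βlow + CYT libraries, so the challenged groups did not overlap. Of 16 leukocyte and antigen-presenting cell markers, the pan-leukocyte gene Ptprc and the myeloid and B-cell genes Itgam, Itgax, Cd14, Tyrobp and Ms4a1 had 0 counts in all 12 libraries. The summed level of the 16 was 1.48 to 2.23 CPM in untreated, 1.23 to 1.72 in IL-1βlow, 2.56 to 3.86 in CYT and 4.74 to 5.94 in IL-1βlow + CYT libraries, and 7 or 8 of them were at 0 in each group. The macrophage genes Adgre1 and Csf1r made up most of the sum in IL-1βlow + CYT libraries, at 2.79 ± 0.606 and 1.43 ± 0.173 CPM. Adgre1 was at 0.0191 CPM in untreated and 1.35 ± 0.573 CPM in CYT cells and passed as higher with the challenge, like the class II genes. Csf1r passed as higher in IL-1βlow + CYT than in CYT cells (0.166 ± 0.111 CPM). Summed other islet, stromal and endothelial markers ran from 30.3 to 69.9 CPM in CYT and from 83.0 to 163 CPM in IL-1βlow + CYT libraries, where Gcg and Col1a2 passed as higher, a call kept in 9 and 10 of 14 alternatives. The β-cell gene Pdx1 also passed as higher there, and Ins2 passed as lower in IL-1βlow (4900 ± 107 CPM) than in untreated cells (8100 ± 870 CPM). The part of these markers in the class II values was not tested. In bulk RNA, fewer cells expressing a gene and less of its RNA per cell cannot be told apart.

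Ciita, the transactivator on which class II transcription depends, was close to silent without the challenge. It had 0, 2 and 4 counts in the untreated libraries and 3, 2 and 0 in the IL-1βlow libraries, and these ranges overlapped. In CYT libraries it had 572, 632 and 786 counts, or 36.0 ± 4.60 CPM. The pooled CPM in CYT cells was 306 times that of untreated cells, with an exact 95% interval of 140 to 834 that covers counting error only. Without untreated replicate 3, which held most of the untreated counts, the fitted log2 fold change of 8.17 was 9.11. In IL-1βlow + CYT libraries Ciita had 75, 118 and 101 counts, or 5.48 ± 0.797 CPM. These lay below all CYT libraries and above all libraries without the challenge.

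Cd74 was the member with the largest rise in IL-1βlow cells, and RT1-Ba, described below, was also higher there on few counts. Untreated libraries held 10, 2 and 5 counts of it, and IL-1βlow libraries held 241, 174 and 168. The corresponding levels were 0.332 ± 0.229 and 11.1 ± 1.07 CPM, a pooled ratio of 33.5 (exact 95% interval 20.7 to 57.9, counting error only). Without untreated replicate 1, the fitted log2 fold change of 5.03 was 5.68. With the challenge Cd74 reached 429, 369 and 387 CPM in CYT libraries and 246, 258 and 244 CPM in IL-1βlow + CYT libraries. The 4 groups did not overlap, in the order untreated, IL-1βlow, IL-1βlow + CYT and CYT. The IL-1βlow level was 2.82% of the CYT mean. In the same IL-1βlow libraries Ciita stayed at 0 to 3 counts, a pooled ratio to untreated cells of 0.814 (exact interval 0.196 to 3.20). A difference in Ciita RNA was therefore not detectable at this depth where Cd74 was already higher.

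**Figure D1:**
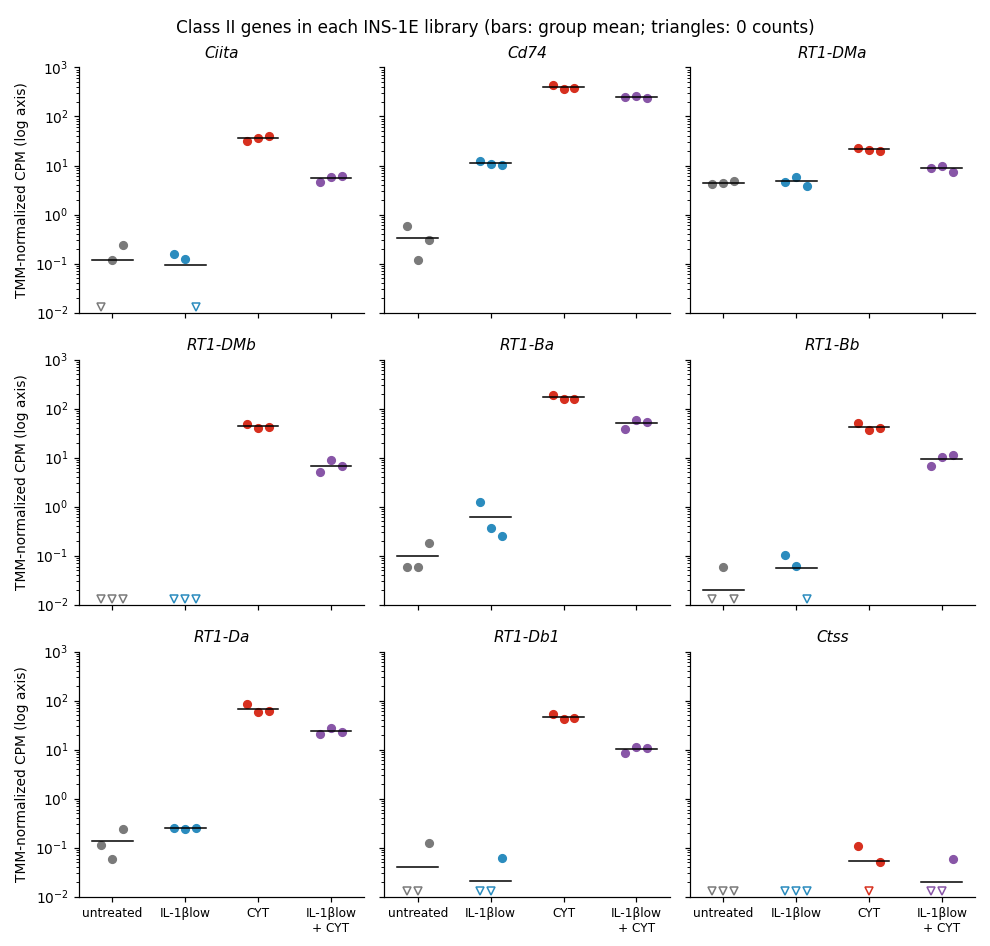
Each point is 1 library's TMM-normalized CPM on a log axis, in the 4 groups on the horizontal axis, with bars at the group mean and open triangles for libraries with 0 counts. Cd74 steps up already in IL-1βlow libraries, 11.1 CPM on average, RT1-DMb appears only in challenged libraries, and the 8 genes tested lie lower in IL-1βlow + CYT than in CYT libraries.

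The peptide-binding chains stayed near the detection limit without the challenge. RT1-Ba, the α chain of the B pair, had 1, 1 and 3 counts in untreated and 24, 6 and 4 in IL-1βlow libraries. Its pooled ratio was 6.64 (exact 95% interval 2.58 to 21.8), and IL-1βlow replicate 1 held most of the counts. The groups did not overlap, and without that library the fitted log2 fold change of 2.64 was 1.57. RT1-Da, the α chain of the D pair, had 2, 1 and 4 counts in untreated and 5, 4 and 4 in IL-1βlow libraries, a ratio of 1.81 whose interval of 0.673 to 5.37 includes no difference. The β chains RT1-Bb and RT1-Db1 had at most 2 counts in any library of these groups. In IL-1βlow against untreated cells 1 of the 8 genes tested, Cd74, passed the thresholds of the study (adjusted p under 0.01 with a log2 fold change above 0.6), where 0.433% of all 14324 genes tested passed in either direction, 0.265% as higher and 0.168% as lower. With exactTest, the test of the study, RT1-Ba passed as well, where 137 of all genes passed. The choice of genes used this comparison.

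With the challenge the chains were abundant in every library. RT1-Ba stood at 188, 160 and 156 CPM in CYT libraries and at 38.7, 57.7 and 54.1 in IL-1βlow + CYT libraries. RT1-Bb stood at 49.9, 36.7 and 40.8 CPM in CYT and at 6.81, 10.5 and 11.2 in IL-1βlow + CYT libraries. For both chains of the B pair every CYT library was above every IL-1βlow + CYT library. RT1-Da stood at 83.2, 57.5 and 60.7 CPM in CYT and at 21.2, 27.2 and 23.4 in IL-1βlow + CYT libraries. RT1-Db1 stood at 53.8, 42.3 and 44.5 CPM in CYT and at 8.51, 11.1 and 10.6 in IL-1βlow + CYT libraries. The D pair thus had the same order of groups, again without overlap. The near copy RT1-Db2, with which RT1-Db1 may share reads, had 0 counts in all libraries without the challenge and 1.32 ± 0.692 CPM in CYT cells.

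The DM pair was uneven at rest. RT1-DMa was the class II gene with a level in untreated cells that passed the filter on its own, at 4.49 ± 0.310 CPM, and IL-1βlow cells were at 4.77 ± 1.03 CPM with overlapping libraries. RT1-DMb had 0 counts in all 6 libraries without the challenge, which allows up to 0.0591 CPM in untreated and 0.0577 CPM in IL-1βlow cells (3 counts over the group). In CYT cells RT1-DMa was at 21.2 ± 1.83 CPM, 4.73 times the untreated level (exact 95% interval 4.10 to 5.47). RT1-DMb was there at 48.4, 39.8 and 42.6 CPM, at least 739-fold higher than in untreated cells against that floor. In IL-1βlow + CYT libraries RT1-DMb was at 5.05, 8.75 and 6.60 CPM, at least 117-fold higher than in untreated cells. RT1-DMa was at 8.94, 9.90 and 7.25 CPM in those libraries, above all 6 libraries without the challenge, and its log2 fold change over untreated cells was 0.95, under the minimum of 1. In CYT against untreated cells all 8 genes tested passed as higher, where 10.0% of all genes did (21.6% in either direction). Of the 8, 7 passed as higher in IL-1βlow + CYT against untreated cells, where 3.85% of all genes did (2.14% as lower, 5.99% in either direction). The same number passed as higher against IL-1βlow cells, where 2.92% of all genes did (3.88% in either direction). Since 6 of the 8 entered the test only through challenged libraries, and the choice of genes used the challenge, these counts describe the genes and support nothing.

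Ctss, the protease that makes the late cuts in the invariant chain, was not expressed at a measurable level. It had 0 counts in all untreated and IL-1βlow libraries, 2, 0 and 1 in CYT and 0, 0 and 1 in IL-1βlow + CYT libraries. Both challenged groups were at or under the floor of 3 counts, and no fold change is given.

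The rule for choosing the genes did not name the comparison of IL-1βlow + CYT with CYT cells, although its results were known and the CYT libraries also enter the comparison that the rule used. All 8 genes tested were lower in IL-1βlow + CYT than in CYT cells, without overlap between the libraries. No share of all genes without overlap is at hand, so the lack of overlap, here and elsewhere, only describes these genes. All 8 were above 1 CPM in every library of both groups, so that either group alone would have passed them through the filter. By the quasi-likelihood test of edgeR, with p-values adjusted after Benjamini and Hochberg over 14324 genes, 7 of the 8 fell past the thresholds (adjusted p under 0.01 with a log2 fold change beyond 1), where 5.92% of all genes passed as lower, 6.54% as higher and 12.5% in either direction. The median log2 fold change of the 8 was -1.95, beside 0.02 over all genes tested. All 8 had also passed as higher in CYT against untreated cells, where 10.0% of all genes did. The share passing as lower among such genes is not at hand. The values over all genes therefore do not show whether the fall is particular to these 8. The falls were graded. Ciita and RT1-DMb fell furthest, and their order turned when CYT replicate 2, CYT replicate 3 or IL-1βlow + CYT replicate 2 was left out. Ciita fell to 15.2% of its CYT level (95% interval 11.0 to 21.0, log2 fold change -2.71, standard error 0.22, adjusted p = 3.3e-07). RT1-DMb fell to 15.7% (interval 11.6 to 21.2, log2 fold change -2.67, adjusted p = 1.8e-06).

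The chains lay in between. RT1-Db1 fell to 21.6% of its CYT level (95% interval 16.5 to 28.2, adjusted p = 4.2e-07) and RT1-Bb to 22.4% (16.7 to 30.1, adjusted p = 1.1e-06). Their α partners fell less, RT1-Ba to 29.9% (22.7 to 39.4, adjusted p = 3.9e-06) and RT1-Da to 35.7% (28.5 to 44.6, adjusted p = 2.6e-06). RT1-DMa fell to 41.1% (32.4 to 52.1, adjusted p = 1.6e-05). Its mean was 4.49 CPM in untreated and 8.69 CPM in IL-1βlow + CYT cells. Its percentage is thus of the whole level, and its place in the order is not one for the rise over untreated cells. Cd74 was lower by the smallest fold, at 63.1% of its CYT level (53.9 to 73.9). Its log2 fold change of -0.66 (standard error 0.11) had an adjusted p of 0.00015 in the same test but was under the fold change minimum, so Cd74 did not pass.

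The intervals of Cd74 and of every other member did not overlap. The unequal falls were also read as ratios of counts within a library, which do not depend on the scaling between libraries. Cd74 had 1.15, 1.24 and 1.28 counts per count of the 4 peptide-binding chains in CYT libraries and 3.27, 2.43 and 2.46 in IL-1βlow + CYT libraries. The difference was 1.14 on the log2 scale, and every IL-1βlow + CYT library was above every CYT library. In IL-1βlow libraries the ratio was 7.77, 15.8 and 18.7, on 9 to 31 chain counts, and in untreated libraries it was 3.33, 0.667 and 0.556, on 3 or 9 chain counts. Counts of Cd74 per count of Ciita were 11.2 ± 2.31 in CYT and 46.2 ± 6.92 in IL-1βlow + CYT libraries.

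**Figure D2:**
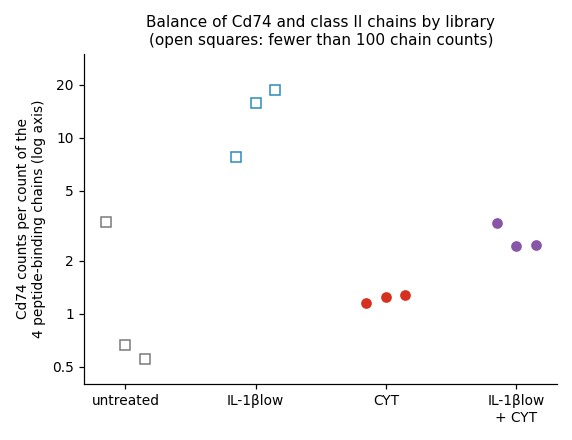
The ratio of Cd74 counts to the summed counts of RT1-Ba, RT1-Bb, RT1-Da and RT1-Db1 is drawn for each library on a log axis, by group. CYT libraries sit at 1.15 to 1.28 and IL-1βlow + CYT libraries at 2.43 to 3.27, and open squares mark libraries with too few chain counts for a precise ratio.

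In each of the 3 pairs the count ratio of the α chain gene to its β partner was higher in preconditioned than in unconditioned challenged cells. RT1-Da had 1.42 ± 0.106 counts per count of RT1-Db1 in CYT and 2.38 ± 0.146 in IL-1βlow + CYT libraries. RT1-Ba had 3.98 ± 0.334 counts per count of RT1-Bb in CYT and 5.33 ± 0.437 in IL-1βlow + CYT libraries. RT1-DMa had 0.488 ± 0.0247 counts per count of RT1-DMb in CYT and 1.33 ± 0.379 in IL-1βlow + CYT libraries. That ratio includes the untreated level of RT1-DMa, 4.49 CPM, for which RT1-DMb had no counterpart. The differences in log2 were 0.74, 0.42 and 1.42, without overlap in any pair. Each of the 5 ratios reached p = 0.1 in a two-sided exact permutation test, before and after Benjamini-Hochberg adjustment over the 5, which is the smallest p that 3 libraries against 3 allow.

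The DNA-bound partners of CIITA were present throughout. Of 7 genes for RFX, NF-Y and CREB factors, none passed the thresholds in any of the 5 comparisons, where 0.433% to 21.6% of all genes did. Their levels ranged from 9.17 CPM (Creb1 in IL-1βlow cells) to 71.2 CPM (Nfya in IL-1βlow + CYT cells). Between IL-1βlow + CYT and CYT cells their median log2 fold change was 0.03. Nfya, an NF-Y subunit singled out after its values were seen, averaged 36.6 ± 3.61 CPM with CYT alone and 71.2 ± 2.49 CPM with IL-1βlow + CYT, beside 55.0 ± 2.67 CPM in untreated cells. The log2 difference between the challenged groups, 0.96 (adjusted p = 3e-06, same test), was just under the minimum.

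Of 10 genes on the path from the IFN-γ receptor to Ciita, 1 passed as lower in IL-1βlow + CYT against CYT cells and none as higher. That is a share near the 5.92% of all genes that passed as lower. The log2 fold changes of the 10 had a median of -0.50. Under the minimum, Ifngr1, Jak1 and Irf2 were among those lower, at -0.42, -0.52 and -0.53, and Ifngr2 was higher, at 0.38. Each had an adjusted p of at most 0.0026 in the same test. Irf1, a transcription factor that acts on the IFN-γ-responsive promoter of Ciita, had a level of 35.1 ± 1.14 CPM in untreated cells, 273 ± 73.8 CPM in CYT cells and 128 ± 5.52 CPM after preconditioning and challenge. In log2 terms it fell by 1.10 from CYT (standard error 0.15, adjusted p = 2.9e-05, same test). Without CYT replicate 3 the change was -0.93, under the minimum. This difference was smaller on the log2 scale than those of Ciita, RT1-DMb and the β chains, and that contrast between genes was not tested. It is of the whole level, and those genes had untreated means of at most 0.121 CPM, unlike Irf1. In IL-1βlow against untreated cells none of the 10 passed, where 0.433% of all genes did, with log2 fold changes from -0.34 to 0.28.

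**Figure D3:**
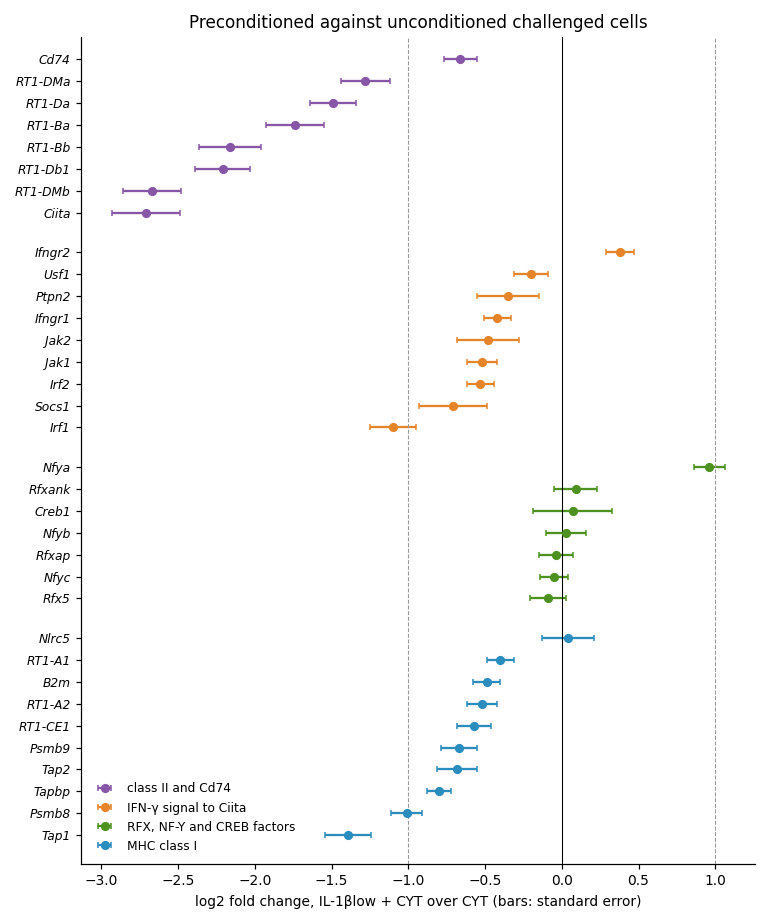
The horizontal axis is the log2 fold change of IL-1βlow + CYT over CYT cells from edgeR's fit to all 12 libraries, with bars for the standard error and dashed lines at the fold change minimum of 1, and 9 of the 10 genes on the IFN-γ path are drawn. Class II genes span -2.71 for Ciita to -0.66 for Cd74, RFX, NF-Y and CREB factors lie near 0 except Nfya, and MHC class I genes run from -1.39 to 0.04.

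MHC class I genes were measured in the same libraries. Of 10 such genes 9 passed as higher in CYT against untreated cells, where 10.0% of all genes did. In IL-1βlow + CYT against CYT cells 2 of the 10 passed as lower, where 5.92% of all genes did. The median of their log2 fold changes there was -0.62. The peptide transporter gene Tap1 fell by 1.39 on the log2 scale (adjusted p = 4.2e-06) and the immunoproteasome gene Psmb8 by 1.01 (adjusted p = 3e-06, same test). Psmb8 was under the minimum without CYT replicate 2 or IL-1βlow + CYT replicate 3, at up to -0.96. Under the minimum, RT1-A1, RT1-A2, RT1-CE1, B2m, Tap2, Tapbp and Psmb9 were also lower in IL-1βlow + CYT than in CYT cells. Their log2 fold changes ran from -0.80 to -0.40, with an adjusted p of at most 0.0016 (same test). At 0.05 with no minimum, 7267 of the 14324 genes tested were called in that comparison. Nlrc5, the class I counterpart of Ciita, was not lower, at 17.8 ± 1.85 CPM with CYT alone and 18.3 ± 4.27 CPM with IL-1βlow + CYT. In IL-1βlow against untreated cells none of the 10 passed, where 0.433% of all genes did. B2m was nearest there with 229 ± 18.0 against 152 ± 13.8 CPM, a log2 fold change of 0.59 under the minimum of 0.6. The class I genes RT1-A1, RT1-A2 and RT1-CE1 are near copies whose reads may be shared. Nlrc5, B2m and the other genes under the minimum were named after their values were seen. The median log2 fold change was -1.95 for class II and -0.62 for class I genes, and the difference between the lists was not tested. These are changes of the whole level, and the untreated levels differed. Untreated means were 9.52 to 159 CPM for the 10 class I genes and 0 to 4.49 CPM for the class II genes tested. The medians therefore do not compare the lists in the rise over untreated cells.

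Most other endosomal processing genes listed were expressed in every group, Ctsh at 0 counts in all libraries and Ctsz at no more than 0.345 CPM in a group mean being the exceptions. Of 10 listed genes for lysosomal proteases, the thiol reductase Ifi30 and protease inhibitors, 8 were tested. Of these, 1 passed as lower in IL-1βlow + CYT against CYT cells, where 5.92% of all genes did, so that nothing is read from the count. That gene was Lgmn, an asparagine-specific endopeptidase, with means of 44.5 ± 0.910 CPM in untreated cells, 143 ± 10.1 CPM with CYT alone and 59.3 ± 3.71 CPM with IL-1βlow + CYT. Its log2 fold change was -1.27 (adjusted p = 4.5e-08, same test). Ctsl, which can cut the invariant chain in cells without cathepsin S, averaged 129 ± 5.75 CPM in untreated cells, 203 ± 20.5 CPM with CYT alone and 139 ± 5.72 CPM with IL-1βlow + CYT. Marchf8, whose ligase takes class II molecules off the surface, was between 124 and 140 CPM in the group means and passed in no comparison, while Marchf1, the other such gene listed, was too low to be tested. The remaining class II region genes were near 0, with RT1-DOa at 2 and RT1-DOb at 6 counts over all 12 libraries.

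Of 6 costimulatory genes 3 were tested. Of these, 2, Cd40 and Icoslg, passed as lower in IL-1βlow + CYT against CYT cells, where 5.92% of all genes did. The third, Cd274, went the other way, with 15.4 ± 1.10 CPM in CYT and 23.2 ± 0.197 CPM after both treatments. Its log2 fold change of 0.59 (adjusted p = 0.00047, same test) was under the minimum, so Cd274 did not pass. Cd40, a costimulatory receptor, averaged 0.0591 CPM in untreated cells, 68.3 ± 13.7 CPM with CYT alone and 20.4 ± 1.61 CPM with IL-1βlow + CYT. Between the challenged groups it fell by 1.74 in log2 (adjusted p = 1.9e-06, same test). Icoslg, the ICOS ligand gene, fell by 2.32 (adjusted p = 1.2e-07, same test) to 40.8 ± 4.16 CPM, beside 45.3 ± 4.02 CPM in untreated cells. Of the costimulatory ligands read by CD28, Cd86 had 0 counts in all libraries, as did the PD-1 ligand gene Pdcd1lg2, and Cd80 did not exceed 0.335 CPM in any group mean. Of 6 genes for ligands and partners of CD74, 3 were tested. Of these, 1, Cxcr4, passed as lower in IL-1βlow + CYT against CYT cells, where 5.92% of all genes did. Ddt, a homologue of Mif, did not pass, Ackr3 was too low to be tested and Cxcr2 had 0 counts. Mif, the cytokine that binds CD74, was at 112 to 130 CPM in the 4 groups and did not pass in any comparison. Cd44, the partner through which CD74 signals, had 13 counts over all 12 libraries. Cxcr4, another partner, fell from 4.94 ± 0.483 to 1.59 ± 0.760 CPM between the challenged groups (log2 fold change -1.64, adjusted p = 0.0028, same test), and without CYT replicate 2 or IL-1βlow + CYT replicate 2 it did not pass, with an adjusted p of up to 0.013.

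Pearson correlation of log2 CPM over the 12 libraries was computed for Cd74, Ciita and RT1-DMb against 11494 genes with a mean log2 CPM above 2, the members aside. The libraries fall into 4 treatment groups, so these values describe shared group patterns and carry no p. Closest to Cd74 were Tmem86a (r = 0.994), the complement gene C3 (0.992), Cxadrl1 (0.987), LOC120096227 (0.984) and Pdk2 (0.981). All 5 had higher means in IL-1βlow than in untreated cells, for C3 at 9.19 against 0.0788 CPM. Closest to Ciita were Scly (r = 0.992), the class I gene RT1-CE15 (0.991), Junb (0.990), the tapasin gene Tapbp (0.990) and Bst2 (0.990). Closest to RT1-DMb were Nos2 (r = 0.997), the inducible nitric oxide synthase gene, Tapbp (0.996), Lif (0.996), Cebpd (0.994) and Fas (0.993). Nos2 had 0.0375 CPM in IL-1βlow and 0.0585 CPM in untreated cells, and Scly had 5.26 against 5.49 CPM, but the other 4 genes beside each of Ciita and RT1-DMb had somewhat higher means in IL-1βlow cells, Tapbp for example with 169 against 157 CPM.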

How the data were processed

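The authors prepared TruSeq libraries, aligned reads with Rsubread (genome mRatBN7.2) and ran featureCounts. They deposited raw counts, 1 whole number for each gene symbol and library. R 4.3.3 is named in the submitters' processing notes. The strand setting is not given in the sources used here. In GRCr8 none of the 9 genes overlaps another annotated gene.

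Columns were matched to groups by library name, and 0 were unused. With R 4.3.3, edgeR 4.0.16 and DESeq2 1.42.0, the CPM filter (2 of 12 libraries above 1) kept 14324 genes with 99.9% of counts. TMM factors were computed and all 4 groups entered 1 edgeR quasi-likelihood fit, p-values being adjusted after Benjamini and Hochberg. Alternatives are in the closing section. The thresholds are the study's, which used exactTest. Pairs of libraries within a group gave a chi-square of 7.08 to 27.4 per degree of freedom, more than counting error, so each is 1 replicate. Deviations from the group means were compared between same-numbered libraries. They correlated at over 0.1 in all 3 pairs of CYT with IL-1βlow + CYT, of IL-1βlow with IL-1βlow + CYT and of IL-1βlow with CYT. This is a hint of pairing among these groups, as a property of the data and not of the labels. Pairs with untreated cells ran from -0.188 (replicate 3) to 0.181 (replicate 2). The main fit and the permutation tests did not use pairing. The replicates are labelled as biological, without naming separate cultures. Intervals and floors cover counting error only, except those of fitted percentages. Standard errors of fitted log2 fold changes were back-calculated from the fold change and the F statistic of the quasi-likelihood test. The intervals of fitted percentages were built on them. On simulated counts for IL-1βlow + CYT against CYT with 14041 genes, 80.5% of 200 genes changed by a log2 fold change of 1.5 passed. This covers that size of change and that comparison alone.

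The 9 genes and all gene lists were chosen with earlier results of these data known. Named beyond the 9 were listed genes that passed in IL-1βlow + CYT against CYT or in IL-1βlow against untreated cells, up to 4 a list by size of change, and the 5 best correlated genes. Others, including those given for their low or steady levels, were named after their values were seen. A result on 1 listed gene and 1 motif is not reported here.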

Additional observations from a re-analysis of the deposited data

How the results depend on the processing

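In IL-1βlow + CYT against CYT cells, the 8 members tested kept their direction under all 14 alternatives (RLE size factors, DESeq2, exactTest, no filter, a stricter filter, only the 2 groups, the replicate block, another call rule and leaving out each library), with log2 fold changes from -2.90 to -0.63. Calling at 0.05 with no minimum on the fold change added Cd74. It called 7267 of all genes there, 193 in IL-1βlow against untreated, 8926 in CYT against untreated, 3124 in IL-1βlow + CYT against untreated and 1855 in IL-1βlow + CYT against IL-1βlow cells. In IL-1βlow against untreated cells 62 genes passed, but 138 with DESeq2, 137 with exactTest, 229 without a filter on low counts and 141 with the replicate block, and 16 to 74 when 1 library was left out. Of the members, 2 passed there with exactTest and 2 without a filter, RT1-Ba in addition to Cd74. Members near 0 counts changed sign there when 1 library was left out, with log2 fold changes from -2.72 to 1.90 for RT1-Db1 and -0.87 to 0.66 for Ciita, and RT1-DMa ran from -0.08 to 0.23. Cd74 ran from 4.63 without untreated replicate 2 to 5.68 without untreated replicate 1. The cause of these differences was not tested. Same-numbered libraries correlated at -0.188 to 0.520 in their deviations, above 0.1 in 13 of 18 pairs, and 9 of 12 libraries correlated best with their own number, a hint of pairing from the data. Apart from the rise from 62 to 141 genes, the replicate block changed no call of a member and no count by over 1.5 times. RT1-DMa crossed the minimum of 1 against untreated cells without untreated replicate 3 (1.00) or IL-1βlow + CYT replicate 3 (1.07), and against IL-1βlow cells without IL-1βlow replicate 2 (1.02). The 5 count ratios, left out library by library after seeing the data, kept their direction. Depth limits the chains, Ciita and Ctss in unchallenged cells, where a few counts decide a fold.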
